A study of Gallus gallus with 20 samples.

Results

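The 163 genes described here were chosen because their levels part the libraries of this chicken study into 2 sides made of whole groups. That no group is split between the sides follows from this choice. One side held scales given retinoic acid (RA), beta-catenin, Spry2 or green fluorescent protein (GFP), 8 libraries in all, called the first side here. The other held scales given Sox18, Sox2, Zic1-deltaC or Grem1, and normal feather, 12 libraries in all, called the second side. The genes were chosen for that division among 11700 rows with an Ensembl identifier and at least 1 RPKM (read counts divided by gene length and by the library's mapped reads) in at least 2 libraries, of 16110 such rows and 16290 rows in the table. A first set, the 25 high genes, had a lowest level on the first side that exceeded the highest level on the second side by over 1 in log2(RPKM + 1). A second set, the 138 low genes, had a highest level on the first side below the lowest level on the second side after each library was scaled by its median ratio to the others. Since the values themselves chose the members, their difference between the sides is given below as a description and is not judged by a test. Test results that cross the sides are only counted, for the comparisons with GFP scales, and nothing is read from them.

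All tissue came from White Leghorn embryos on embryonic day 16. Scutate scales, the large plates of the bird foot, were collected after RA into the amniotic cavity on embryonic day 9 (n = 2), or after misexpression from RCAS, an avian retroviral vector, of beta-catenin, which carries the Wnt signal into the nucleus (n = 2), of Spry2, an inhibitor of receptor tyrosine kinase signalling (n = 2), of the transcription factors Sox18 (n = 3) and Sox2 (n = 2), of a construct named Zic1-deltaC (n = 3), or of Grem1, which binds and blocks secreted bone morphogenetic proteins (n = 2). Scales with RCAS carrying GFP were the control (n = 2), and feather was taken as dorsal skin without a named treatment (n = 2). The labels describe virus injected on embryonic day 3 into amniotic cavity and hind limb or plasmid with electroporation, without saying which group had which, name no vehicle control for RA, and do not say whether a library came from 1 embryo or several. They give no sex of any embryo. Whether the replicates of a group are different embryos is not stated either, and a p-value here therefore reflects no more than the variation among the libraries at hand, part of which may be technical.

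The label under which these genes were gathered compares the division with embryo sex. In birds the female carries a Z and a W chromosome and the male a pair of Z chromosomes, so genes of the W are transcribed in females only. Dosage compensation of the Z is incomplete in chickens, and many Z-linked genes are transcribed more in males than in females. The files pair none of the members with a gene name or a chromosome, and 0 of the 163 identifiers occur in the RefSeq gene table of the chicken assembly GRCg7b, nor does any of the 16110 Ensembl rows. Whether any member lies on the Z or the W was therefore not tested, and the sets are called by their levels. No function is given for any member for the same reason.

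Depth is unknown, since the values are RPKM given to 1 decimal and read totals were not used here. Summed RPKM was 373552 to 750919 per library, and keratins made up 4.39% to 74.4% of it, with the highest shares in feather. Other rows also set libraries apart. The 6 beta-catenin, Grem1 and Spry2 libraries held 25 rows at 1 RPKM or more that were listed at 0 in the other 14 libraries, and GFP replicate 1 held 88 rows with a level of at least 1 RPKM that exceeded each of the remaining libraries more than 4-fold. None of the 163 members was among these rows (0 in each case), which the rule fixed for the 25 rows, and for the low genes also for the 88. The first of these groupings crosses the division, because beta-catenin and Spry2 scales lay on the first side and Grem1 scales on the second. No keratin met either rule (0 for the first set and 0 for the second).

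The 25 high genes had a large summed level on the first side and a small sum on the second. Most of them were not abundant singly, and the median of their means on the first side was 5.86 RPKM. Their summed level was 911 and 851 RPKM in RA scales, 1182 and 1267 RPKM in beta-catenin scales, 1331 and 1290 RPKM in Spry2 scales and 1589 and 1649 RPKM in GFP scales. It was 3.6, 1.0 and 0.9 RPKM in Sox18 scales, 1.2 RPKM in both Sox2 libraries, 0.9, 1.3 and 1.2 RPKM in Zic1-deltaC scales, 9.0 and 7.7 RPKM in Grem1 scales, and 0.5 and 0.4 RPKM in feather. The rule itself fixed that no library lay between and that replicates of a group lay on the same side. In bulk tissue, fewer cells that carry a transcript and less of it per cell cannot be told apart. Of the rows that could have met this rule, 0.214% did.

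**Figure D1:**
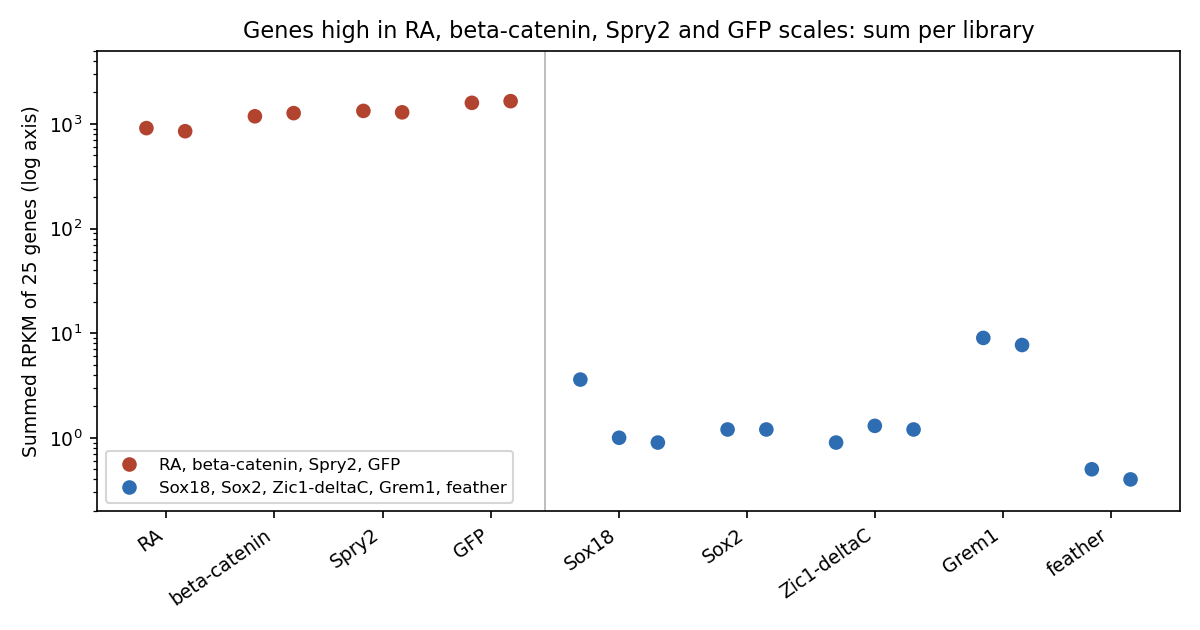
Summed RPKM of the 25 high genes in each of the 20 libraries on a log axis, 1 point per library, with groups along the x axis. The 8 libraries of the first side lie between 851 and 1649 RPKM and the 12 of the second side between 0.4 and 9.0 RPKM.

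A few members carried most of this sum. The 4 most abundant, each with a mean of 100 RPKM or more on the first side, made up 81.0% of it, 7 had means between 10 and 100 RPKM, and 14 had means below 10 RPKM. ENSGALG00000022674, the most abundant, had 367 and 350.0 RPKM with RA, 509 and 548 RPKM with beta-catenin, 562 and 539 RPKM with Spry2 and 771 and 829 RPKM in GFP scales. It had 1.7, 0.1 and 0.0 RPKM with Sox18, 0.2 and 0.1 RPKM with Grem1, and was listed at 0 in all Sox2, Zic1-deltaC and feather libraries. The groups of the first side lay in the order RA, beta-catenin and Spry2 together, then GFP, without overlap between RA and the others or between GFP and the others. ENSGALG00000022679, the second most abundant, had 131 and 121 RPKM with RA, 199 and 207 RPKM with beta-catenin, 203 and 194 RPKM with Spry2 and 268 and 274 RPKM in GFP scales. On the second side its highest value was 0.2 RPKM, in Sox18 replicate 1. In these deposited values both genes were thus lowest with RA and highest in GFP scales on the first side, while beta-catenin and Spry2 libraries overlapped.

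The rule fixed that every high gene stood above 1 RPKM in all 8 libraries of the first side. On the second side 241 of the 300 values were 0 (80.3%), 14 of the 25 genes were listed at 0 in all 12 libraries, and 16 never exceeded 0.1 RPKM. Only 3 of the 25 reached 1 RPKM in any library there. The fifth most abundant gene was the main exception, at 6.8 and 5.8 RPKM in Grem1 scales, against 0.1 RPKM in both feather libraries and 46.4 to 65.9 RPKM on the first side. That gene made up 75.6% and 75.3% of the summed level in Grem1 scales. The sixth most abundant gene followed with 1.2 and 1.0 RPKM in Grem1 scales, against 0.1 and 0.0 RPKM in feather. The other gene to reach 1 RPKM was the most abundant one, in Sox18 replicate 1, where it made up 47.2% of the summed level, a share within the 40.3% to 50.3% seen on the first side. In Sox18 replicates 2 and 3 its share was 10% and 0%. The share of the fifth gene in Sox18 replicate 1 was 11.1%, outside the 3.37% to 5.45% of the first side. The sum in that library was only 3.6 RPKM, from values given to 0.1 RPKM.

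**Figure D2:**
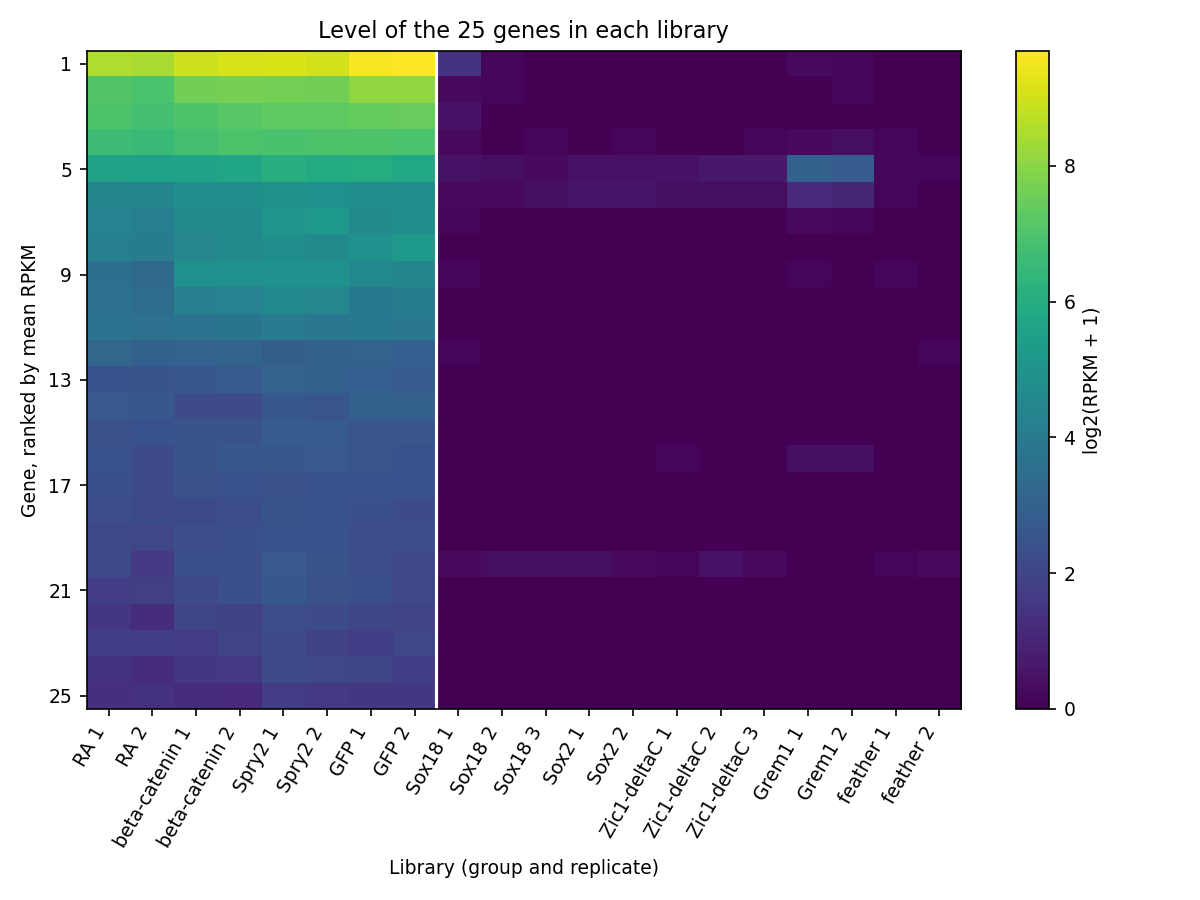
Level of each of the 25 high genes, ranked from the most to the least abundant (rows), in each library (columns) as log2(RPKM + 1); the white line parts the 2 sides. The brightest cells of the second side are the fifth gene in Grem1 scales, the first gene in Sox18 replicate 1 and the sixth gene in Grem1 scales.

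The edge of the rule cut through genes of low level. The 3 members nearest the limit had margins of 1.26, 1.20 and 1.15, with lowest values of 1.4, 1.3 and 2.1 RPKM on the first side and highest values of 0.0, 0.0 and 0.4 RPKM on the second. The 3 nearest rows outside had margins of 0.85, 0.79 and 0.77, with lowest values of 0.8, 0.9 and 0.7 RPKM on the first side and highest values of 0.0, 0.1 and 0.0 RPKM on the second. With any margin above 0 the rule found 35 rows, with all 25 members necessarily among them.

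The rule did not choose genes for differences among groups of the same side, although it limits the spread within a side, and these differences were tested. limma was fitted to log2(scaled RPKM + 1) of 11863 rows in all 20 libraries, where scaled RPKM is RPKM divided by the library's median ratio, and p-values were adjusted over all rows within a comparison with 0.05 as the threshold. Between the 4 groups of the first side 13 of the 25 high genes differed by the F test, against 61.5% of all rows tested. The count was 22 on deposited RPKM, 3 with a pseudocount of 0.1 and 5 at a mean of 5 RPKM, where 11 of the 25 were tested. The share of all rows called is not given for these settings. The rule left out any gene that was low in a single library of this side, and a share near or below the background is no result about the members. The median high gene varied 1.34-fold between the highest and the lowest group mean, and the most variable 2.42-fold. The same ratio had a median of 1.42 over all 11700 rows. Within groups of the first side the high genes had a median SD of 0.067 in log2, against 0.095 for all 11700 rows. Within groups of the second side their median SD was 0. The fit pooled the spread over both sides, so p-values of high genes within the first side rest partly on libraries near 0. For the 14 genes at 0 in all 12 libraries of the second side, those libraries add no spread. This lowers the spread taken from a gene's own libraries, which alone would make such p-values too small. The fit also draws on the spread of other rows of similar level, which can raise the estimate. For genes with scattered values on the second side the estimate can rise as well. Which of these prevailed for a gene was not tested.

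Against GFP scales, RA scales had 1 high gene that rose and 5 that fell, where limma called 36.3% of all rows, 19.4% higher and 16.9% lower. The median difference was -0.02 in log2 for the high genes and -0.02 for all rows. ENSGALG00000022679 stood at 145 ± 3.87 scaled RPKM in RA scales and 242 ± 6.02 in GFP scales (SD, n = 2 each), and fell by 0.74 in log2 (SE 0.078, limma adjusted p = 4.33e-06). The ninth most abundant gene fell by as much, with 11.1 ± 1.55 scaled RPKM in RA scales and 19.0 ± 0.469 in GFP scales (log2 difference -0.73, SE 0.10, limma adjusted p = 5.89e-05). The twelfth was the one that rose, at 8.65 ± 0.968 scaled RPKM against 6.19 ± 0.515 (log2 difference 0.42, SE 0.10, limma adjusted p = 0.0045). With a pseudocount of 0.1, 0 rose and 1 fell. On deposited RPKM without scaling 0 rose and 17 fell, while the median of all rows was -0.31 in log2 there and -0.02 after scaling. The labels name no virus for RA scales, whereas GFP scales carried RCAS. RA and the absence of virus therefore cannot be told apart in this comparison.

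The most abundant gene did not pass the test in any comparison with GFP scales. It had 411 ± 2.04 scaled RPKM with RA, 503 ± 12.4 with beta-catenin, 450 ± 6.89 with Spry2 and 713 ± 43.0 in GFP scales (SD, n = 2 each). The log2 differences were -0.79 with RA, -0.50 with beta-catenin and -0.66 with Spry2, each with an SE of 0.31 and limma adjusted p of 0.0613, 0.258 and 0.139 in that order. Without Sox18 replicate 1, where the gene had its 1.7 RPKM, the limma adjusted p became 6.05e-07, 8.66e-05 and 6.33e-06 at the same differences, since that library enters the shared estimate of spread. The RA difference also passed without Sox18 replicate 3 (limma adjusted p = 0.0324), on deposited RPKM (-1.16, limma adjusted p = 0.00295) and with quantile normalization (-1.36, limma adjusted p = 0.00428), and all 3 passed with only the compared groups in the fit (limma adjusted p of 0.00575, 0.0324 and 0.0157).

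Beta-catenin scales had 2 high genes that rose and 5 that fell against GFP scales, where 26.4% of all rows were called, 14.0% higher and 12.5% lower. The fourteenth most abundant gene had 3.52 ± 0.0974 scaled RPKM with beta-catenin and 6.19 ± 0.137 in GFP scales, and fell by 0.67 in log2 (SE 0.069, limma adjusted p = 1.01e-05). The ninth, lower with RA, was higher here, at 26.7 ± 0.537 scaled RPKM against 19.0 ± 0.469 (log2 difference 0.47, SE 0.10, limma adjusted p = 0.004). ENSGALG00000022679 stood at 193 ± 0.288 scaled RPKM against 242 ± 6.02, a log2 difference of -0.32 (SE 0.078, limma adjusted p = 0.0073), and this call ended without GFP replicate 2 (limma adjusted p = 0.0509). Without GFP replicate 2 the count of called high genes was 4 in place of 7.

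Spry2 scales had 3 high genes that rose and 3 that fell, where 25.5% of all rows were called, 12.8% higher and 12.6% lower. ENSGALG00000022679 stood at 162 ± 3.10 scaled RPKM with Spry2 and 242 ± 6.02 in GFP scales, and fell by 0.57 in log2 (SE 0.078, limma adjusted p = 8.48e-05); with quantile normalization it missed the threshold (log2 difference -0.21, limma adjusted p = 0.10). With a pseudocount of 0.1 none of the 3 differences of this gene from GFP scales passed (limma adjusted p of 0.135 with RA, 0.562 with beta-catenin and 0.283 with Spry2). With only the compared groups in the fit all 3 passed, less clearly (limma adjusted p of 0.00385, 0.0484 and 0.0131 in the same order). The tenth most abundant gene had 17.7 ± 0.277 scaled RPKM against 13.3 ± 1.12 and rose by 0.39 in log2 (SE 0.072, limma adjusted p = 0.001). The 3 comparisons share both GFP libraries, so that a deviation of those libraries would enter all of them. Beta-catenin and Spry2 scales also belong to the 6 libraries with rows of their own, so that this grouping and the treatment cannot be told apart against GFP. Between Spry2 and beta-catenin scales, both inside that grouping, 4 high genes were higher with Spry2 and 2 lower, where 29.4% of all rows were called, 14.2% higher and 15.3% lower; this comparison was added after the values were seen.

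The higher sum of the 25 genes in GFP scales came mostly from the leading pair. Summed scaled RPKM of all 25 was 1011 ± 19.6 with RA, 1165 ± 25.1 with beta-catenin, 1072 ± 8.93 with Spry2 and 1443 ± 49.7 in GFP scales. Without the 2 most abundant genes, the other 23 summed to 455 ± 13.7 with RA, 469 ± 12.9 with beta-catenin, 459 ± 1.05 with Spry2 and 488 ± 0.667 in GFP scales. The sum of the 23 thus ran over a narrower range of groups than the sum of the leading pair.

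On the second side the high genes were mostly at 0 and few could differ. Feather was dorsal skin without a named treatment, so tissue, virus and construct cannot be told apart in comparisons with it. The F test between its 5 groups called 3 of the 25, against 92.6% of all rows. Against feather, Grem1 scales were higher for 3 high genes and lower for 1, where 72.2% of all rows were called, 37.6% higher and 34.6% lower. The fifth most abundant gene led them (log2 difference 2.49, SE 0.093, limma adjusted p = 3.5e-12). Sox2 scales were higher than feather for 1 high gene, the sixth (74.4% of all rows called, 38.1% higher and 36.3% lower), and Zic1-deltaC scales for 1, the fifth (76.3% of all rows called, 39.3% higher and 37.0% lower). As deposited, the sixth had 0.5 RPKM in both Sox2 libraries and 0.1 and 0.0 RPKM in feather. The fifth had 0.4, 0.6 and 0.6 RPKM with Zic1-deltaC and 0.1 RPKM in both feather libraries. These values lie near the 0.1 RPKM step of the data. With only the compared groups in the fit the Sox2 count was 0, and without feather replicate 2 the genes called were 2 lower for Sox2 and 2 lower for Zic1-deltaC, with 0 higher in both. Without feather replicate 1 the Zic1-deltaC count was 3. Sox18 scales differed from feather in 0 high genes by limma, with 0 at an unadjusted p under 0.05, where 71.4% of all rows were called, 36.9% higher and 34.5% lower. The count was 1 without Sox18 replicate 2, 2 without Sox18 replicate 3, 1 without either feather replicate, 2 on deposited RPKM and 3 with a pseudocount of 0.1.

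The 138 low genes differed between the sides by much less, and in every case on top of a level detected on both. Of the rows that could have met this rule, 1.18% did. On scaled values the mean of the first side was lower than that of the second by a median of 1.82-fold, with quartiles of 1.64 and 1.97. In 120 of the 138 (87.0%) the ratio of the second side to the first lay between 1.5 and 2.2, in 10 it was smaller and in 8 larger. The same ratio had a median of 1.02 over 11682 rows with both means above 0, with quartiles of 0.917 and 1.14, and 5.98% of them lay in that range. The rule itself, which needs every library apart, bounds the ratio of the members below and sets them off from all rows. The limits of 1.5 and 2.2 were a choice of description. Nothing is read from the contrast of 87.0% with 5.98%. Going the other way, 39 rows lay higher on the whole first side than on the second after scaling (0.333%), and 25 of those were the high genes.

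**Figure D3:**
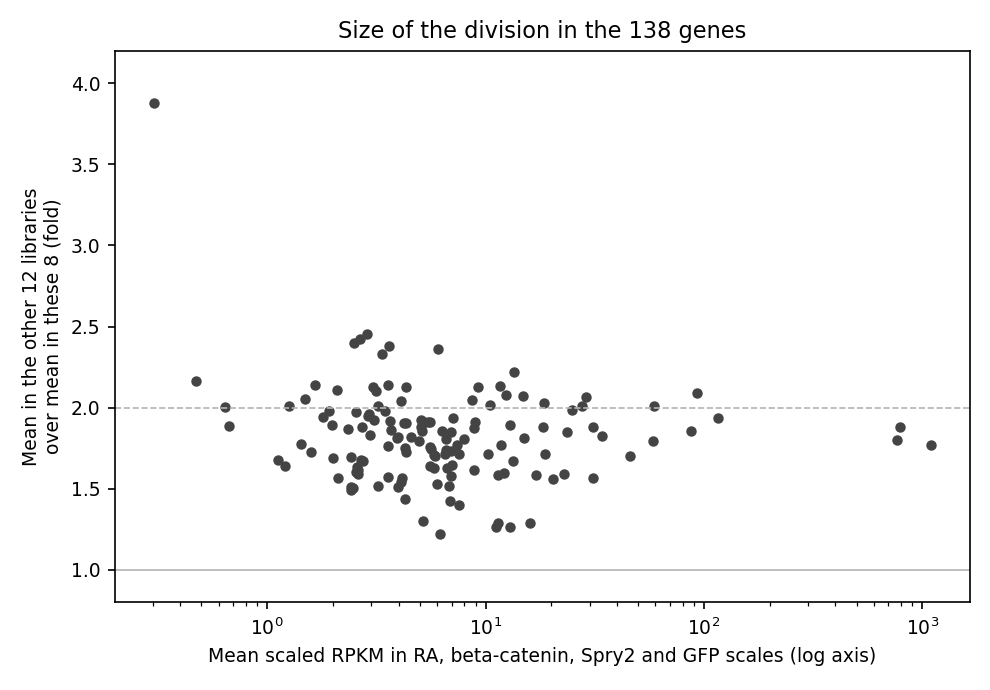
For each of the 138 low genes (1 point each), the mean scaled RPKM of the 12 libraries of the second side divided by that of the 8 libraries of the first (y axis, fold) over the mean on the first side (x axis, log axis). Lines mark 1 (solid) and 2 (dashed); most points lie between 1.5 and 2.2 over the whole range of levels, and 1 gene of very low level lies at 3.88.

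The gene with the widest gap was ENSGALG00000014644. It had 100.4 and 96.1 scaled RPKM with RA, 82.0 and 86.6 with beta-catenin, 91.2 and 88.8 with Spry2 and 101 and 96.3 in GFP scales. On the second side it had 195, 179 and 161 scaled RPKM with Sox18, 205 and 198 with Sox2, 188, 182 and 200.01 with Zic1-deltaC, 187 and 184 with Grem1, and 227 and 224 in feather. The highest library of the first side, GFP replicate 1, and the lowest of the second, Sox18 replicate 3, were 0.67 apart in log2. The second widest gap, 0.62 in log2, was that of ENSGALG00000015663. Its scaled RPKM was 11.1 and 10.1 with RA, 12.4 and 12.6 with beta-catenin, 11.4 and 11.6 with Spry2 and 12.6 and 11.7 in GFP scales. The second side had 29.9, 28.5 and 28.3 scaled RPKM with Sox18, 23.3 and 20.8 with Sox2, 22.5, 21.5 and 22.2 with Zic1-deltaC, 22.5 and 19.96 with Grem1, and 29.5 and 30.4 in feather. In both genes the first side was close to flat and the second side varied more.

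Levels of the low genes spanned a wide range. Mean scaled RPKM over all libraries ran from 0.805 to 1602 with a median of 7.90, against a median of 6.57 over the 11700 rows. A mean of 100 or more was reached by 6 of the 138, and 38 had a mean below 5. The most abundant had 871 to 1301 scaled RPKM on the first side and 1394 to 2622 on the second. The largest ratio, 3.88-fold, belonged to a gene with mean scaled RPKM of 0.303 on the first side and 1.18 on the second, where a step of 0.1 RPKM is a large part of the value. The gap between the sides was over 0.5 in log2 in 7 genes, over 0.2 in 73 and 0.05 or less in 22.

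The edge of this rule fell among genes with almost touching libraries. The 3 members nearest to it had gaps of 0.0029, 0.0028 and 0.0015 in log2, and the highest library of the first side against the lowest of the second was 7.75 and 7.77, 6.73 and 6.75, and 5.85 and 5.85 scaled RPKM in these. The 3 nearest rows outside missed by 0.0001, 0.0005 and 0.0019.

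The level of the low genes in each library was summarised as follows. Each gene's scaled level was set against its own geometric mean over the 20 libraries, and the median over the 138 genes was taken in each. The rule fixed that the sides differ in this median, and the values give its size and the order of libraries within a side. That median was -0.48 and -0.47 in log2 with RA, -0.49 and -0.51 with beta-catenin, -0.43 and -0.52 with Spry2 and -0.44 and -0.50 in GFP scales. It was 0.34, 0.40 and 0.41 with Sox18, 0.32 and 0.29 with Sox2, 0.33, 0.28 and 0.31 with Zic1-deltaC, 0.30 and 0.23 with Grem1, and 0.30 and 0.33 in feather. On the first side Spry2 and GFP scales spanned the values of RA scales, while RA and beta-catenin scales did not overlap. On the second side Sox2, Zic1-deltaC and feather overlapped, and Grem1 overlapped Sox2 and Zic1-deltaC. All Sox18 libraries lay above every other scale library. Feather had the widest spread among genes, with quartiles of 0.087 and 0.58 in replicate 1 and 0.085 and 0.64 in replicate 2.

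**Figure D4:**
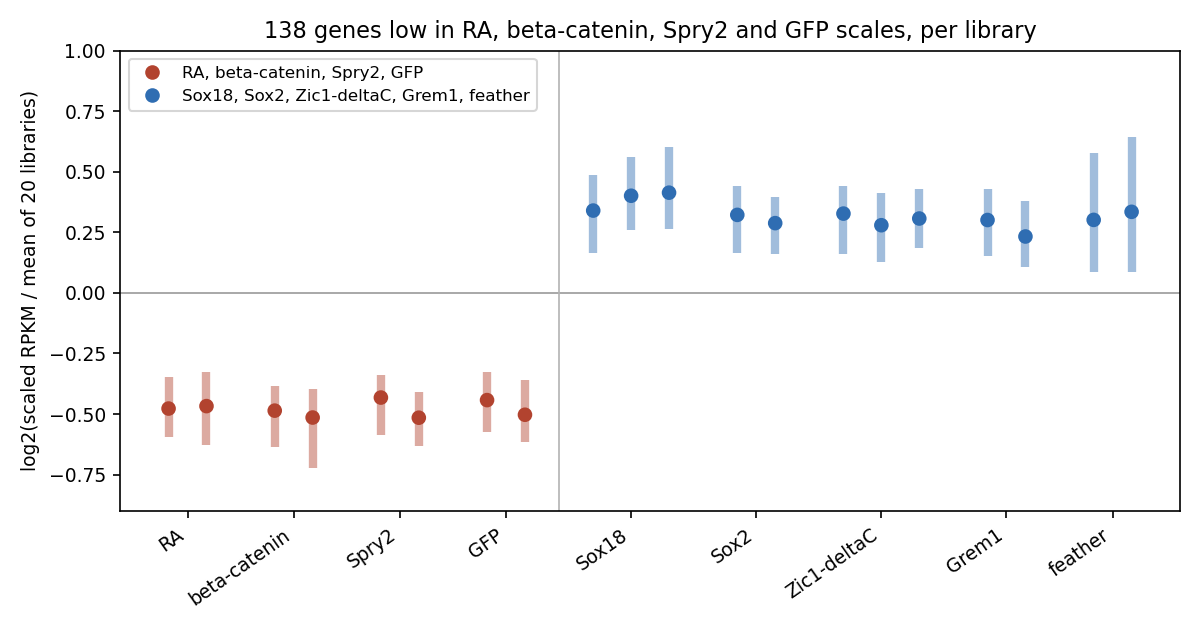
Median (point) and quartiles (bar) over the 138 low genes of log2(scaled RPKM over the gene's mean of the 20 libraries), 1 point per library, with groups along the x axis. First-side medians lie between -0.52 and -0.43 and second-side medians between 0.23 and 0.41, with the longest bars in feather.

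The rule fixed that the sides are apart in any subset of the libraries, so the values inside and outside the 6 libraries with rows of their own are given for size alone. Among those 6, the second side (Grem1) over the first (beta-catenin and Spry2) had a median ratio of 1.72 over the 138 genes, with quartiles of 1.55 and 1.89. Among the other 14 libraries the median was 1.78, with quartiles of 1.61 and 1.98. For the high genes the sums inside the 6 libraries were 1182 to 1331 RPKM on the first side and 7.7 to 9.0 RPKM on the second, and outside them 851 to 1649 RPKM and 0.4 to 3.6 RPKM.

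The low genes depended on the scaling, mainly through feather. On deposited RPKM only 18 rows met the rule, and 6 of them were among the 138. Every Sox2 library and every Zic1-deltaC library lay above the whole first side on deposited RPKM for all 138 genes, every Grem1 library for 130 and every Sox18 library for 108, but both feather libraries for only 7. The rule fixed the Sox2 count, because the Sox2 scaling factors (1.40 and 1.45) exceeded every first-side factor (0.854 to 1.23). It fixed the Zic1-deltaC count except against Spry2 scales, with factors of 1.15 to 1.19 against 1.23 and 1.21 for Spry2. ENSGALG00000014644 had 97.1 and 114 RPKM as deposited in feather, against 82.0 to 114 RPKM on the first side. Feather libraries, with keratin shares of 74.4% and 68.8%, had the lowest scaling factors, 0.427 and 0.510, so scaling raised their values most. With both feather libraries left out, deposited RPKM gave 154 rows, 107 of them among the 138; that alternative was chosen after the data were seen.

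Inside the first side, 60 of the 138 low genes differed between the 4 groups by the F test, against the 61.5% of all rows given above, a share of 43.5%. The rule left out genes with any first-side library above the second side, which limits how far these libraries could spread. The median low gene varied 1.23-fold between group means of the first side, against 1.42-fold for all 11700 rows. Against GFP scales, 17 low genes rose and 13 fell with RA (19.4% and 16.9% of all rows), with a median difference of -0.02 in log2. On deposited RPKM the split was 0 higher and 82 lower, and with quantile normalization 17 and 30. The median of all rows for RA was -0.31 in log2 on deposited RPKM and -0.06 with quantile normalization. With beta-catenin 9 rose and 20 fell (14.0% and 12.5% of all rows; 1 and 21 on deposited RPKM, 6 and 25 with quantile normalization), with a median difference of -0.05. With Spry2 8 rose and 12 fell (12.8% and 12.6% of all rows, and 11 and 5 low genes on deposited RPKM), with a median of -0.01. Shares of all rows are those of the main fit. They are not given for the other scalings, so nothing is read about the members from the splits there.

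**Figure D5:**
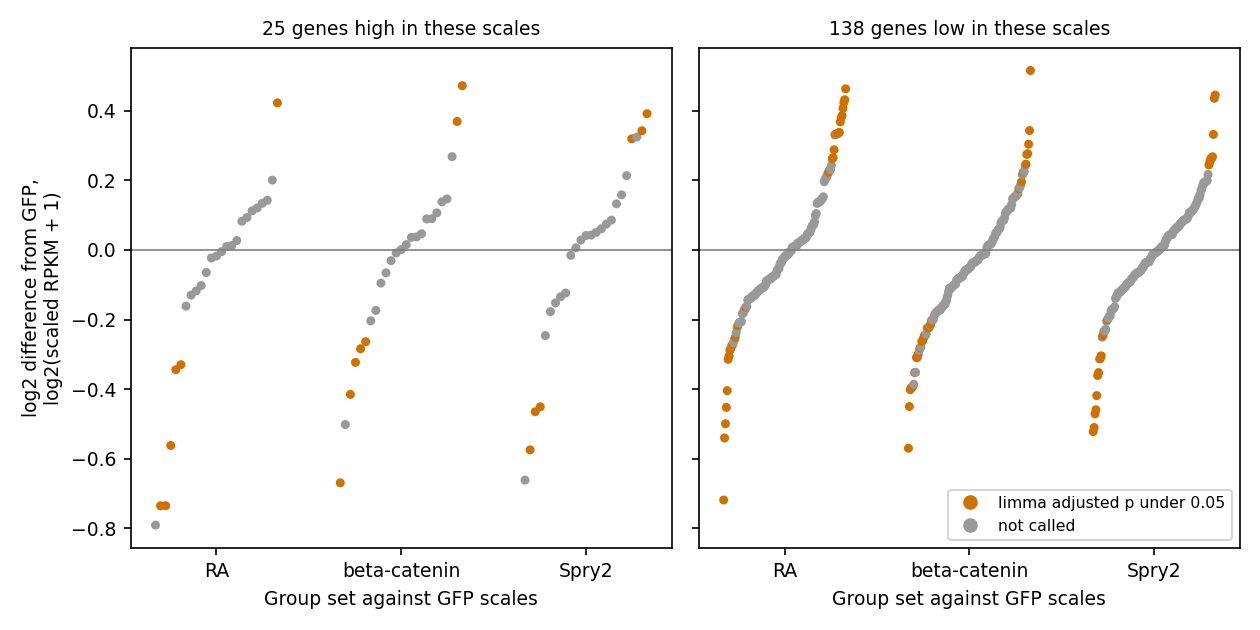
Log2 difference of each high gene (left) and each low gene (right) between RA, beta-catenin or Spry2 scales and GFP scales, on log2(scaled RPKM + 1), sorted within each group; orange points have a limma adjusted p under 0.05. Differences lie between -0.79 and 0.47 for the high genes and between -0.72 and 0.52 for the low genes, on both sides of 0 in all 3 groups.

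These counts were not stable to single libraries. The beta-catenin count of 29 low genes was 14 without beta-catenin replicate 1 and 8 without replicate 2, and 10 and 13 without GFP replicates 1 and 2. The Spry2 count of 20 was 9 and 13 without Spry2 replicates 1 and 2, and 12 and 10 without GFP replicates 1 and 2. For ENSGALG00000014644 the log2 differences from GFP scales were 0.00 with RA, -0.22 with beta-catenin and -0.13 with Spry2 (limma adjusted p of 0.975, 0.0531 and 0.264). On deposited RPKM the first became -0.37 (limma adjusted p = 0.00464) and the second -0.32 (limma adjusted p = 0.0258), and both passed with quantile normalization too (limma adjusted p of 0.00659 and 0.00381). For ENSGALG00000015663 they were -0.18, 0.04 and -0.07 (limma adjusted p of 0.0586, 0.727 and 0.515). Its RA difference passed on deposited RPKM (-0.52, limma adjusted p = 0.00054) and with quantile normalization (-0.26, limma adjusted p = 0.00584). It also passed with the replicate number as a block (limma adjusted p = 0.0464).

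Inside the second side 125 of the 138 low genes differed between the 5 groups by the F test (90.6%), against 92.6% of all rows. Against feather, 49 were higher and 30 lower in Sox18 scales, 43 and 47 in Sox2 scales, 45 and 53 in Zic1-deltaC scales and 33 and 46 in Grem1 scales. The shares of all rows called higher and lower were those given above for the same comparisons. On deposited RPKM these splits became 130 and 2, 137 and 1, 135 and 3, and 130 and 2 in the same order, and the median of all rows was 0.75, 1.22, 0.99 and 0.89 in log2. With quantile normalization they were 65 and 24, 68 and 25, 64 and 32, and 51 and 32. A direction against feather is therefore given only with its scaling. The shares of all rows called under these other scalings are not given, so nothing is read about the members from those splits.

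On scaled values ENSGALG00000014644 was lower than in feather with Sox18 (log2 difference -0.34, SE 0.074, limma adjusted p = 0.000671), Zic1-deltaC (-0.25, limma adjusted p = 0.0062) and Grem1 (-0.28, limma adjusted p = 0.0059). Each of these directions turned on deposited RPKM and with quantile normalization, where the turned Sox18 difference missed the threshold (limma adjusted p = 0.0725). Its Sox2 difference was -0.16 on scaled values (limma adjusted p = 0.0843). That difference was 1.44 on deposited RPKM and 1.40 with quantile normalization (limma adjusted p of 2.79e-10 and 1.17e-10). ENSGALG00000015663 was lower than in feather with Sox2 (-0.43), Zic1-deltaC (-0.42) and Grem1 (-0.48), with limma adjusted p of 6.05e-05, 2.49e-05 and 2.1e-05. These turned on deposited RPKM. With quantile normalization the Sox2 and Zic1-deltaC directions turned, and the Zic1-deltaC and Grem1 differences missed the threshold. A single gene, chosen after its values were seen, stood far apart in feather, at 17.8 and 19.99 scaled RPKM against 3.20 to 3.90 in the scales of the second side. The log2 difference from feather was -2.17 with Sox18, -2.22 with Sox2, -2.09 with Zic1-deltaC and -2.21 with Grem1 (limma adjusted p from 1.58e-11 to 3.56e-11). These differences are on scaled values, and scaling raised feather most. As deposited, the mean of that gene over the second side was 4.74 RPKM, against 6.01 scaled RPKM. Its differences under other scalings are not given here, so their size holds for scaled values only. On the first side that gene had 1.70 to 3.16 scaled RPKM, so that it divided the sides by little in the scales.

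The comparisons of the second side with GFP scales cross the division the members were chosen on. All 25 high genes were called lower in Sox18, Sox2, Zic1-deltaC, Grem1 and feather libraries, where limma called 24.9%, 21.3%, 14.1%, 16.8% and 37.1% of all rows lower. Of the 138 low genes, 132, 134, 133, 127 and 127 were called higher in the same order, where 23.9%, 17.8%, 14.2%, 18.9% and 35.2% of all rows were. The choice of members favoured these calls, because the compared libraries lie on opposite sides. The counts and the shares beside them are therefore no test of the division, and nothing is read from them. The counts state only how many rows in each list of differences from GFP scales belong to the division.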

How the data were processed

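RNA of 20 libraries was measured by RNA-seq with the Illumina TruSeq kit, per the labels' protocols. TopHat2, Partek and the build galGal4 are named in the submitters' processing notes; their versions and settings were not given in the sources used here. A difference on log2(RPKM + 1) understates that of rows with a low level, in either set. The deposited values are RPKM per gene and library, 1 column per replicate, in a table of all genes; the deposited table of keratins was not used. Members and lists were chosen with earlier results of these data known. Median-ratio factors came from 11635 rows above 0 in all 20 libraries. The prior variance of limma followed the mean level in a fit of log2(scaled RPKM + 1) of 11863 rows (163 of them keratins) in 9 groups (residual degrees of freedom 11, and 3.98 from the prior), with Benjamini-Hochberg adjustment within each comparison. Both groups of a pair had 2 or 3 libraries, so calls rest on the pooled spread. The named genes were the 2 most abundant high genes and the 2 low genes with the widest gap; lists of W- and Z-linked genes could not be used without symbols. Alternatives were deposited and quantile-normalized values, a pseudocount of 0.1, no filter, a mean of 5 RPKM, other margins, a replicate block, only the groups compared, and leaving out each library. The rule and the fit were tested on simulated data. Software was limma 3.58.1 under R 4.3.3, and pandas 2.3.3, numpy 2.4.6 and matplotlib 3.10.9 under Python 3.11.15.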

Additional observations from a re-analysis of the deposited data

How the results depend on the processing

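The number of high genes was 25 without any single library, where the rule fixed that no member could drop out. That of low genes was 137 to 148 without any single library. There were 18 low genes on deposited RPKM, 11 high genes at a mean of 5 RPKM and 7 low genes at a gap over 0.5. On deposited RPKM the counts of called high and low genes were 17 and 82 for RA against GFP, 2 and 132 for Sox18, 2 and 138 for Sox2 against feather, 22 and 117 between first-side groups, with 2 high genes for Zic1-deltaC and 132 low genes for Grem1. Quantile normalization gave 11 and 47 for RA. A pseudocount of 0.1 gave 1 high gene for RA, 1 for beta-catenin, 2 for Spry2, 3 for Sox18, 2 for Zic1-deltaC, 3 between first-side groups and 6 between second-side groups. No filter gave 10 high genes for RA and 2 for Zic1-deltaC; a mean of 5 RPKM, with 11 of the 25 tested, gave 3 for RA, 4 for beta-catenin, 2 for Grem1 and 5 between first-side groups. Only the compared groups gave 19, 5 and 9 low genes for RA, beta-catenin and Spry2, and 0 high genes for Sox2. Leaving out 1 library gave 4 to 9 high and 8 to 30 low genes for beta-catenin, 9 to 23 low genes for Spry2, and for high genes 0 to 2 with Sox18, 1 to 2 with Sox2, 1 to 3 with Zic1-deltaC and 3 to 5 between second-side groups. Against feather, ENSGALG00000014644 turned to 0.69 with Sox18, 1.06 with Zic1-deltaC and 0.92 with Grem1 on deposited RPKM, and to 0.14, 0.70 and 0.58 with quantile normalization; ENSGALG00000015663 turned to 1.11 with Sox2, 0.84 with Zic1-deltaC and 0.67 with Grem1, and to 0.21 and 0.075 with Sox2 and Zic1-deltaC under quantile normalization. The cause of these changes was not tested. The share of all rows called under each alternative is not given, here or above, so the changed counts are no result about the members.

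Replicate numbers did not pair the samples: same-numbered libraries had deviations correlated at -0.09 to 0.22 on the first side and -0.11 to 0.13 on the second. With the replicate number as a block the Sox18 count of high genes was 2 in place of 0, and no other count moved by over 1.5 times. Values are given to 0.1 RPKM, which limits genes of low level.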
